A study of Mus musculus with 96 samples.

Results

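The 47 genes described here encode the actin cytoskeleton and its contractile machinery, and all 47 that were looked for by symbol were found among the 15895 genes of the expression table. They comprise 4 actin isoforms, 7 contractile and actin-binding proteins, 4 tropomyosins, 6 myosin subunits or myosin regulators, 15 focal adhesion and crosslinking proteins, 6 proteins of monomer and filament turnover and 5 signalling proteins or transcriptional cofactors. RNA was sequenced from primary mouse embryonic fibroblasts (MEF) of the CF-1 strain, isolated on embryonic day 13, with no genetic modification named. All cells were held for 36 h in 0.5% fetal calf serum, which arrests fibroblasts, and were then moved to 20% serum to restart the cell cycle, which need not bring all cells into step. Cycle 1 has 64 labelled libraries from -1 h to 38 h, of which 63 could be matched to a column of the table and that at 12.5 h could not, and Cycle 2 has 32 from -1 h to 27 h, with 1 library at each time in each cycle. The -1 h and 0 h libraries of both cycles are the 4 starved libraries, and the later ones carry the same starvation followed by serum. The comparison asks how the RNA of these genes moved through the response of starved cells to serum.

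Actin monomers polymerize into filaments that tropomyosins and calponins decorate, that non-muscle myosin pulls upon, and that focal adhesions anchor to the surface on which fibroblasts grow. Many of these genes carry a CArG box, the site bound by serum response factor (SRF), whose cofactors Mkl1 and Mkl2 are held back in the cytoplasm by free actin monomers. Serum drives polymerization, which frees these cofactors, and fibroblasts with abundant smooth muscle actin in stress fibers are known as myofibroblasts.

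Promoter windows were printed to show where such a box lies in these genes. RefSeq promoter windows of build GRCm38.p6, from 250 bases upstream to 50 bases downstream of each start site, were given for 42 of the 47 genes. A CArG box was searched on both strands by its consensus, and capitals mark it within the printed stretch of each window that held one. Fhl2 has a box in windows of 2 start sites, and each sequence is read in the direction of transcription.
Actg1 (chr11:120348556-120348605, minus strand): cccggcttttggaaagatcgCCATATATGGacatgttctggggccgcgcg
Cnn2 (chr10:79988524-79988573, plus strand): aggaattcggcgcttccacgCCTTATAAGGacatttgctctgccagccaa
Myl6 (chr10:128493030-128493079, minus strand): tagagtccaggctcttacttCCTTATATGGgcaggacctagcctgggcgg
Myl9 (chr2:156775283-156775332, plus strand): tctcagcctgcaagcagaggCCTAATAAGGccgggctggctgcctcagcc
Vcl (chr14:20929151-20929200, plus strand): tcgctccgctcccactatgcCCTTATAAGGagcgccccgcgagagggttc
Lima1 (chr15:99820167-99820216, minus strand): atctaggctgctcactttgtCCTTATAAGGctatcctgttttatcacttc
Fhl1 (chrX:56779561-56779610, plus strand): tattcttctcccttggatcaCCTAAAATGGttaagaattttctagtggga
Fhl2 (chr1:43196828-43196877, minus strand): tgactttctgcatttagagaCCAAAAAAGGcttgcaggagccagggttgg
Fhl2 (chr1:43163963-43164012, minus strand): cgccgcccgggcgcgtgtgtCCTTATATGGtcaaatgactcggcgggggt
Rnd3 (chr2:51149182-51149231, minus strand): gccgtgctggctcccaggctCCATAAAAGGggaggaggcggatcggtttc
In these windows 9 of 42 genes, or 21.4%, held a box, against 1.64% of the 11510 genes of the table with a window and 1.63% of all 32851 windows. The boxes began between 31 bases (Fhl2) and 227 bases (Vcl) upstream of the start site. These matches are a description of the letters only. The remaining windows held no match, and Actb, Actg2, Tagln, Csrp2 and Diap1 had no window.

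Recovered read depth ranged from 5067431 to 14500103 per library, with medians of 10968123 in Cycle 1 and 10779372 in Cycle 2. All values below are normalized reads, scaled by the authors to the same total in every library, and a log2 change is on the scale of log2(value + 1). All 12 fibroblast markers were present in every library, from 39357 normalized reads upward for Col1a1 and 288 upward for Twist1. Markers of other lineages had highest values of 47.4 for Pecam1 and 176 for Kdr of endothelium, 38.1 for Epcam and 441 for Krt18 of epithelium, and 91.4 for Ptprc and 269.6 for Csf1r of blood cells. Nes of the neural list reached 4591. In the smooth muscle and pericyte list highest values ran from 30.2 for Kcnmb1 to 4650 for Cspg4 and 5511 for Cnn1. Those of the skeletal and cardiac muscle list ran from 24.0 for Myod1 to 540 for Actc1. The 24.5 h library of Cycle 1 stood apart, with a median absolute log2 difference of 0.411 from its neighbours, against 0.235 for the next library that does not adjoin it. It held the highest Cycle 1 value of 22 of the 47 genes and was outside the main test, because Cycle 2 has no library at that time. Ranges given for a window of hours cover the hours sampled in both cycles, which leaves out times such as 5.5 h that were sampled in Cycle 1 alone.

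Many actin and contractile genes rose after serum. At 21 to 27 h 27 of the 47 were called higher (limma, limits given below), beside 6.59% of all genes. All 27 were over 2-fold higher in Cycle 1, but only 16 of them were in Cycle 2. At 4 to 8 h 5 of the 47 were already called higher, beside 7.64% of all genes. All 5 were over 2-fold higher in Cycle 1, but only 1 of them was in Cycle 2. In Cycle 1 the 47 genes summed to 1.83% and 1.85% of the 2 starved libraries. At the shared hours from 21 to 27 h they summed to between 5.81% and 6.35%, with a median of 5.86%. In Cycle 2 the starved libraries already held 3.43% and 3.48%, and the 21 to 27 h libraries held 6.44% to 6.85%, with a median of 6.52%. At 1 to 3 h the share was 2.90% to 3.02% in Cycle 2, below both of its starved libraries, and 1.90% to 2.36% in Cycle 1, above both. Because the cells were sequenced in bulk, fewer cells with an active contractile program and less contractile RNA in each cell cannot be told apart.

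**Figure D1:**
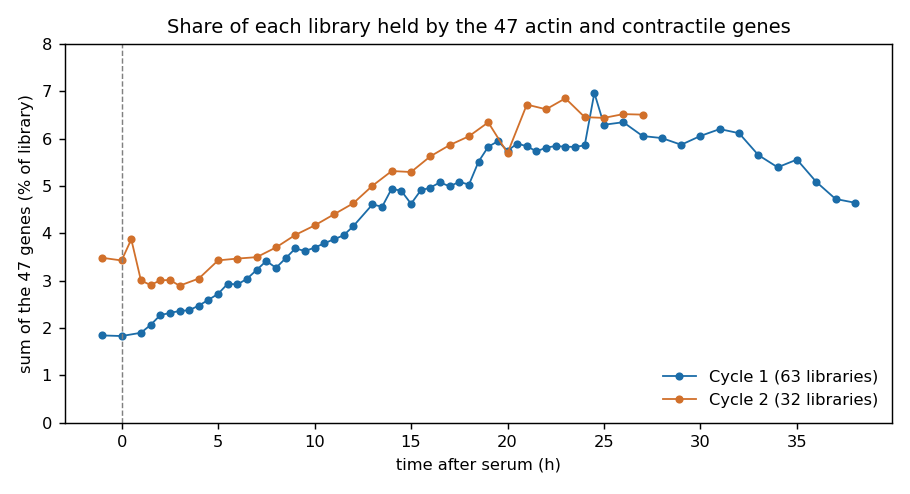
Summed normalized reads of the 47 genes as a percentage of each library (vertical axis) against time after serum in h (horizontal axis), with 1 point per library of Cycle 1 (blue) and Cycle 2 (orange). The share went from 1.83% at 0 h to 5.86% at 24 h in Cycle 1 and from 3.43% to 6.46% in Cycle 2, and was 4.65% at 38 h in Cycle 1.

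The 29 hours sampled in both cycles were set against the 4 starved libraries with limma over all 15895 genes, with cycle as a term. Calls needed both an adjusted p (Benjamini-Hochberg) under 0.05 and more than a 2-fold change, which is 1 on the log2 scale. By the F test over all shared hours, 33 of the 47 genes were called, beside 52.5% of all genes, and 30 of them were higher and 3 lower at the hour of largest change. At 1 to 3 h 1 gene was higher, beside 5.3% of all genes, and 2 were lower, beside 11.8%. For 4 to 8 h the counts were 5 higher, beside 7.64%, and 3 lower, beside 18.6%. Between 9 and 14 h 11 were higher, beside 6.96%, and 2 lower, beside 16.6%. The hours from 15 to 20 h gave 24 higher, beside 6.8%, and none lower, beside 17.1%. In the last shared hours, 21 to 27 h, 27 were higher, beside 6.59%, and 1 was lower, beside 19%. In the limma test of 15 to 20 h, 3 genes were lower at an unadjusted p under 0.05, none by 2-fold, and edgeR and DESeq2 likewise called 0 genes lower and gave 3 at that unadjusted p.

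The median log2 change of the 47 genes was 0.03, 0.26, 0.61, 1.01 and 1.13 in the 5 successive windows, while that of all genes stayed between -0.26 and -0.13. Among the 9119 genes with a mean of at least 100 normalized reads the median was -0.20, -0.09, 0.01, 0.05 and 0.04. Rescaling by TMM raised the median gene by 0.25 log2 units at 1 to 3 h and by 0.11 to 0.18 in the later windows, and the medians of the 47 genes became 0.28, 0.45, 0.74, 1.12 and 1.27. All 14 libraries at 21 to 27 h lay above all 4 starved libraries for 35 of the 47 genes, as they did for 14.1% of all genes. They lay below them for 2 genes, as for 20.4% of all genes. These p-values measure the spread between 2 cycles whose neighbouring hours deviate together (median correlation 0.64 across genes over 28 neighbouring pairs), so the hours are not independent and the p-values are too small. Whether the libraries of 1 cycle came from separate cultures or animals is not given in the sources used here.

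**Figure D2:**
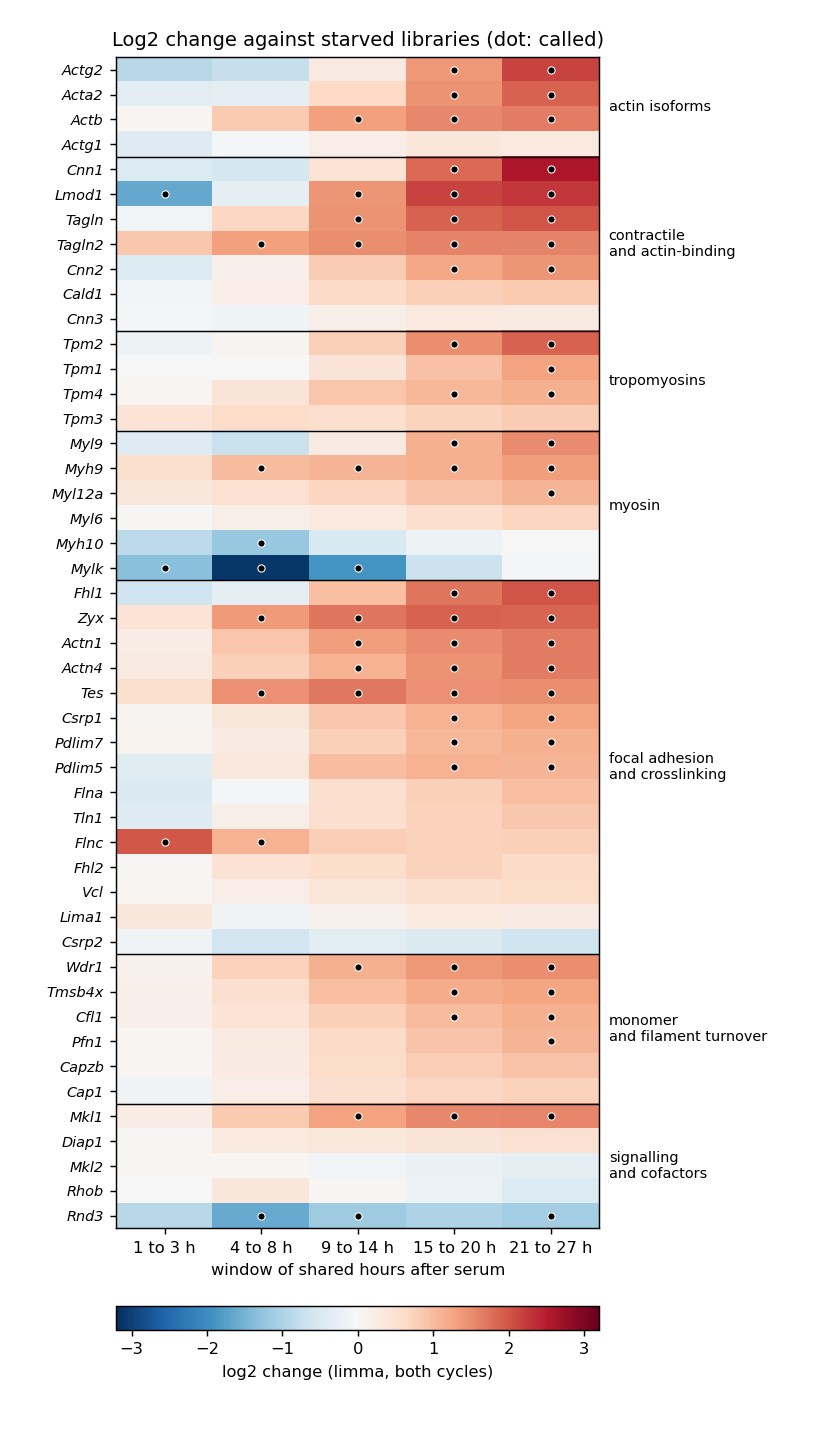
Log2 change of each of the 47 genes against the 4 starved libraries (color, limma over both cycles) in 5 windows of shared hours after serum (columns), with a dot where the gene was called. Most rows turn from pale or blue in the first 2 windows to red at 15 to 20 h and 21 to 27 h, where 24 and 27 genes were called higher, and Mylk is the deepest blue at -3.10 in the 4 to 8 h column.

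By the median of the 47 genes, the cycles differed most before serum was given. Both starved libraries of Cycle 2 lay above both of Cycle 1 for 40 of the 47 genes, as they did for 29.5% of all genes, and below both for 5, as for 38.8%. The median log2 difference of Cycle 2 from Cycle 1 was 0.68 in the starved libraries and 14 genes differed by more than 2-fold upward, while the median over genes with a mean of at least 100 normalized reads was 0.03. It was 0.32 at 1 to 3 h, 0.09 at 4 to 8 h and 0.09 at 21 to 27 h, when none of the genes was more than 2-fold higher in Cycle 2. The later rise was accordingly larger in Cycle 1, with a median log2 change of 1.52 at 21 to 27 h, than in Cycle 2, with 0.72. All 27 genes called higher there moved up in both cycles and by over 2-fold in Cycle 1, and 16 of them did so by over 2-fold in Cycle 2. The difference between the cycles was not tested. With Cycle 1 left out, 16 genes were called higher at 21 to 27 h and 12 at 15 to 20 h, and with Cycle 2 left out the counts were 32 and 29. The 11 calls at 21 to 27 h that needed Cycle 1 were those of Tagln2, Cnn2, Tpm4, Myl12a, Myh9, Pdlim5, Pdlim7, Csrp1, Cfl1, Pfn1 and Tmsb4x.

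**Figure D3:**
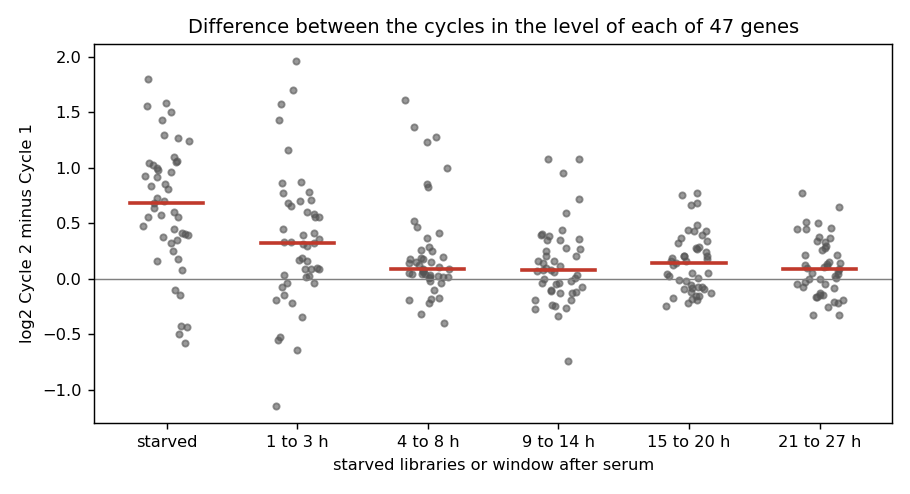
Log2 difference in level between Cycle 2 and Cycle 1 (vertical axis) for each of the 47 genes (points) in the starved libraries and in the 5 windows (horizontal axis), with the median as a red bar. The median goes from 0.68 in the starved libraries to 0.09 at 21 to 27 h. The range is -0.57 to 1.80 in the starved libraries, wider at 1 to 3 h (-1.14 to 1.96), and -0.32 to 0.78 at 21 to 27 h.

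Actin isoforms. Acta2, the smooth muscle alpha-actin (NCBIM37 chr19:34315580-34329826), was the most abundant of the 4 per kilobase of exon, at a mean of 16207 normalized reads per kb in starved libraries, followed by Actb, the cytoplasmic beta-actin (chr5:143664794-143668433), at 6125. Acta2 stood at 15034 and 14285 normalized reads in the starved libraries of Cycle 1 and at 43398 and 42744 in those of Cycle 2. Its lowest values were 9557 at 3.5 h in Cycle 1 and 28747 at 3 h in Cycle 2, and at 21 to 27 h it stood at 78007 to 92474 (median 79767) and 99701 to 111556 (median 103619). All 14 late libraries lay above all starved ones, and the log2 change was 1.89 ± 0.20 (SE) with an adjusted p of 8.35e-10 by limma. The early difference was not called, at -0.36 ± 0.21 (adjusted p = 0.153 by limma).

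Actb moved sooner. Its starved values were 12149 and 13048 in Cycle 1 and 21019 and 19417 in Cycle 2, and at 4 to 8 h all 10 libraries, from 21088 to 33730, already exceeded them. The log2 change was 0.83 ± 0.12 at that window, under the 2-fold limit, and 1.30 ± 0.12 at 9 to 14 h (adjusted p = 3.03e-11 by limma). It reached 46566 to 64441 in Cycle 1 and 39868 to 54364 in Cycle 2 at 21 to 27 h, a log2 change of 1.64 ± 0.12 (adjusted p = 7.06e-14 by limma). In the 1 to 3 h libraries it was above the Cycle 1 starved mean (log2 0.42) and below that of Cycle 2 (-0.30), with values that nearly coincided, 12894 to 20493 and 13271 to 18774.

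Actg2, the enteric smooth muscle gamma-actin (chr6:83462899-83486259), also rose late. It held 735 and 666 normalized reads in the starved libraries of Cycle 1 and 2077 and 1898 in those of Cycle 2. At 1 to 3 h it stood at 295 to 366 and 1142 to 1362, below the starved libraries of the same cycle, with a log2 change of -0.89 ± 0.21 that was not past the 2-fold limit. At 21 to 27 h it reached 3409 to 4770 and 6260 to 7550, a log2 change of 2.15 ± 0.20 (adjusted p = 4.66e-11 by limma). Actg1, the cytoplasmic gamma-actin (chr11:120207004-120209856), was listed low, at 63.9 to 93.9 in starved libraries and 28.4 per kb, and was not called in any window (-0.41 to 0.37). Cytoplasmic actins have many near-identical copies in the genome, among which the counting could split reads, so the value of Actg1 is uncertain and this was not tested.

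Contractile and actin-binding proteins. Of these 7 genes 5 were called higher at 21 to 27 h, beside 6.59% of all genes. The other 2, Cald1 and Cnn3, were not called in any window. Cnn1, the smooth muscle calponin (chr9:21903725-21914074), had the largest log2 change against the starved libraries of the 27 genes called higher at 21 to 27 h. It held 422 and 402 normalized reads in starved Cycle 1 cells and 1258 and 1225 in starved Cycle 2 cells. At the shared hours from 1 to 8 h every library lay below the starved pair of its own cycle, at 275 to 381 and 667 to 858. By 21 to 27 h it stood at 2939 to 4522 (median 3487) and 4875 to 5511 (median 5104), all above the 4 starved values, with a log2 change of 2.60 ± 0.15 (adjusted p = 4.23e-16 by limma).

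Lmod1, a leiomodin that nucleates actin filaments (chr1:137221384-137264642), fell before it rose. Starved values of 289 and 260 in Cycle 1 and 819 and 666 in Cycle 2 dropped to 57.1 at 2.5 h and 187 at 3 h, with a log2 change over 1 to 3 h of -1.63 ± 0.23 (adjusted p = 2.37e-07 by limma). The gene then passed all starved libraries, with 1254 to 1929 and 2310 to 2799 at 15 to 20 h, a log2 change of 2.15 ± 0.22, and 2.27 ± 0.22 at 21 to 27 h. Tagln, or SM22, an actin-bundling protein of smooth muscle (chr9:45737711-45744141), showed the widest gap between the starved cycles of all 47 genes, with 6105 and 5602 against 20054 and 20616. It reached 37019 to 45610 and 45595 to 53082 at 21 to 27 h, and its log2 change of 2.02 ± 0.24 (adjusted p = 1.26e-08 by limma) combined 2.78 in Cycle 1 with 1.26 in Cycle 2. Its broadly expressed relative Tagln2 was already called at 4 to 8 h (1.32 ± 0.15) and stood at 1.59 ± 0.14 at 21 to 27 h. Without Cycle 1, Tagln2 and Cnn2 fell under the 2-fold limit at 21 to 27 h, with log2 changes of 0.96 and 0.90.

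**Figure D4:**
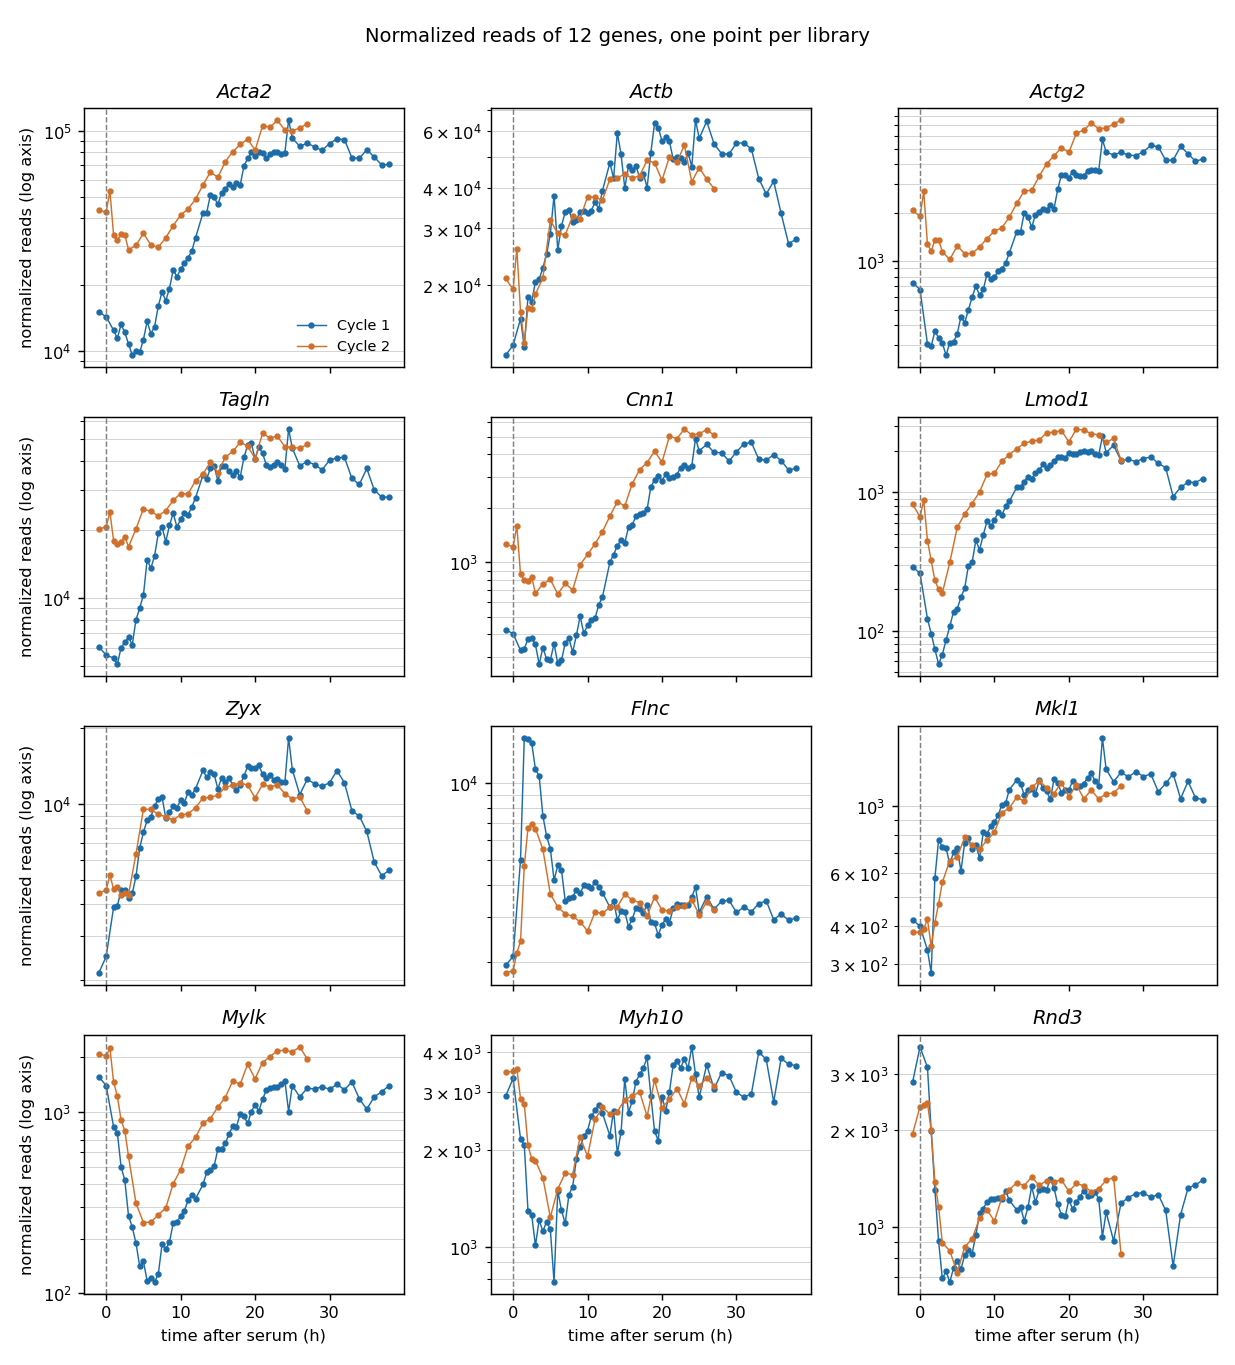
Normalized reads (log axis) of 12 genes against time after serum in h, with 1 point per library of Cycle 1 (blue) and Cycle 2 (orange). Acta2, Actg2, Tagln and Cnn1 are highest late. Zyx is above its starved values by 4 to 8 h, and Flnc peaks at 1.5 h and 2.5 h. Mylk and Myh10 fall and rise again, though Myh10 is below its starved values at 21 to 27 h of Cycle 2. Rnd3 falls and stays below its starved values.

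Tropomyosins. These coiled-coil proteins run along the filament. Tpm2 (chr4:43527583-43536637) rose most, from starved values of 2325 and 1907 in Cycle 1 and 3375 and 3496 in Cycle 2 to 8740 to 18478 (median 10130.5) and 8107 to 10079.8 (median 8943) at 21 to 27 h. All 14 late libraries lay above the starved ones, and the log2 change was 1.89 ± 0.19 (adjusted p = 2.92e-10 by limma). Tpm1 (chr9:66870397-66897213) had log2 changes of 0.00 ± 0.08 and -0.01 ± 0.08 at 1 to 3 h and 4 to 8 h. These combined 0.21 and 0.25 in Cycle 1 with -0.20 and -0.28 in Cycle 2. Tpm1 stood at 20968 to 30997 and 27191 to 29770 at 21 to 27 h against 8231, 7586, 13709 and 14025 when starved. Its log2 change was 1.29 ± 0.08 (adjusted p = 1.27e-15 by limma). Tpm4 was called at 1.14 ± 0.15, a call that was lost when either starved library of Cycle 1 was left out (1.00 and 0.96) and without Cycle 1 (0.58). Tpm3 was the lowest of the family at 77.1 normalized reads per kb when starved and was not called in any window (0.81 ± 0.12 at 21 to 27 h).

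Myosin. Mylk, the myosin light chain kinase (chr16:34745296-35002520), fell more than any other of the 47 genes. Starved values were 1566 and 1400 in Cycle 1 and 2099.6 and 2034 in Cycle 2, and at 4 to 8 h they were 122 to 189 (median 150.3) and 246 to 315 (median 271). No library of that window overlapped a starved one, and the log2 change was -3.10 ± 0.09 (adjusted p = 8.42e-24 by limma). The lowest values were 0.0778 of the starved mean at 6.5 h in Cycle 1 and 0.119 at 5 h in Cycle 2. Mylk rose again to 1178 to 1488 and 1874 to 2287 at 21 to 27 h, which overlapped the starved range in both cycles (-0.07 ± 0.09, adjusted p = 0.496 by limma).

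Myh10, the heavy chain of non-muscle myosin IIB (chr11:68505061-68630134), was also lower early. Its starved values of 2923, 3309.8, 3454 and 3482 dropped to 1121 to 1539 and 1237 to 1692 at 4 to 8 h, below every starved library (-1.22 ± 0.14, adjusted p = 6.64e-09 by limma), and reached 782 at 5.5 h of Cycle 1, which Cycle 2 did not sample. At 21 to 27 h Myh10 stood at 2900 to 4140 in Cycle 1, which overlapped the starved values of that cycle. In Cycle 2 it stood at 2769 to 3327, below both starved values of that cycle. Myh9, the heavy chain of non-muscle myosin IIA (chr15:77591017-77672605), moved the opposite way. It went from 5738 and 5578 in Cycle 1 and 11582 and 11939 in Cycle 2 to 13672 to 17282 and 16490.1 to 18226 at 4 to 8 h (1.02 ± 0.13, adjusted p = 2.19e-08 by limma) and to a log2 change of 1.33 ± 0.12 at 21 to 27 h. Myl9, the regulatory light chain of smooth muscle type (chr2:156601156-156607394), stood below its cycle's starved values at 4 to 8 h, at 1576 to 2468 and 3553 to 4189, and then reached 10376 to 14303 and 12726 to 14655 at 21 to 27 h. Its late log2 change was 1.52 ± 0.16 (adjusted p = 7.08e-10 by limma). The essential light chain Myl6 was not called (0.69 ± 0.11 at 21 to 27 h), and Myl12a, which has a near-identical paralog, was called at 1.08 ± 0.10 but not when either starved Cycle 1 library was left out (0.97 and 0.98).

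Focal adhesion and crosslinking proteins. Of these 15 genes 8 were called higher at 21 to 27 h, beside 6.59% of all genes. At 4 to 8 h 3 were higher, beside 7.64%, and at 1 to 3 h 1 was, beside 5.3%. None was called lower in any window, beside 11.8% to 19% of all genes. The earliest was Flnc, filamin C (chr6:29383153-29411888), a crosslinker best known from muscle. It held 1939 and 2102 normalized reads in starved Cycle 1 cells and 1809 and 1849 in starved Cycle 2 cells, and peaked at 15038 at 1.5 h and 6938 at 2.5 h, or 7.44 and 3.79 times the starved mean. All 10 libraries at 1 to 3 h lay above the starved ones (1.98 ± 0.19, adjusted p = 1.59e-10 by limma). It then settled at 2846 to 3595 and 3064 to 3497 at 21 to 27 h (0.77 ± 0.18, not called). With Cycle 1 left out the early log2 change was 1.49 and was no longer called.

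Zyxin and testin, LIM domain proteins of adhesions and stress fibers, came next. Zyx (chr6:42299827-42310145) rose from 2134 and 2484 and from 4441 and 4549 to 5163 to 10465 and 6339 to 9537 at 4 to 8 h, with all 10 libraries above all starved ones (1.36 ± 0.14, adjusted p = 2.59e-10 by limma), and it held 1.87 ± 0.13 at 21 to 27 h. Tes (chr6:17015149-17055828) had its highest window at 9 to 14 h, at 1649 to 1876 and 1691 to 1859 against 415, 388, 817 and 712 when starved (1.69 ± 0.13, adjusted p = 6.44e-13 by limma).

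Fhl1, a LIM-only protein (chrX:53984964-54046523), was the strongest late gene of this group. Against starved values of 829 and 778 and of 1651 and 1634, it stood at 510.2 to 663 and 771 to 1140.5 at 1 to 3 h (-0.64 ± 0.09, under the 2-fold limit), and reached 2891 to 4255 and 5195 to 5789 at 21 to 27 h (2.02 ± 0.09, adjusted p = 6.4e-19 by limma). The alpha-actinins Actn1 and Actn4, which crosslink filaments, were both called from 9 h onward and ended at log2 changes of 1.66 ± 0.13 and 1.66 ± 0.12. Csrp1, Pdlim5 and Pdlim7 were called from 15 h onward, between 1.06 and 1.27. Flna was just under the limit at 0.96 ± 0.12, and it passed it under TMM scaling (1.10), in edgeR (1.06) and in DESeq2 (1.01). Vinculin (Vcl), the adhesion plug, was not called in any window (at most 0.59 ± 0.13), and Csrp2 lay below all starved libraries in all 14 late libraries but under the 2-fold limit (-0.65 ± 0.17).

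Monomer and filament turnover. Of these 6 genes 4 were called higher at 21 to 27 h, beside 6.59% of all genes. Wdr1, which helps cofilin take filaments apart (chr5:38918053-38952905), rose most, from 3237, 3002, 5045 and 4658 to 10034 to 11513 and 9923 to 11371 (1.49 ± 0.09, adjusted p = 9.58e-16 by limma). Tmsb4x, thymosin beta 4, which binds monomers (chrX:163645025-163647247), went from 6415, 5564, 12497 and 12529.7 to 16819 to 26213 and 18057 to 23766 (1.26 ± 0.17, adjusted p = 1.16e-07 by limma). For both genes all 14 late libraries exceeded all starved ones. Cfl1, cofilin, and Pfn1, profilin, were called at 1.13 ± 0.13 and 1.08 ± 0.13. The call of Cfl1 was lost without the 0 h library of Cycle 1 (0.97) and that of Pfn1 without either starved library of Cycle 1 (0.99 and 0.92). The capping protein subunit Capzb and the cyclase-associated protein Cap1 had log2 changes of 0.90 ± 0.08 and 0.74 ± 0.06 and were not called, though Capzb passed the limit under TMM scaling (1.04) and in edgeR (1.02).

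Signalling proteins and cofactors. Mkl1 and Mkl2, the actin-regulated cofactors of SRF, went different ways. Mkl1 (chr15:80842711-81021187) held 420.1 and 400.3 in starved Cycle 1 cells and 383 and 382 in starved Cycle 2 cells, and it was lowest at 1.5 h, with 280.1 and 344. It rose to 1106 to 1223 and 1071 to 1209 at 15 to 20 h, above all starved values, with a log2 change of 1.53 ± 0.08 (adjusted p = 2.73e-16 by limma) and 1.56 ± 0.08 at 21 to 27 h. In contrast with most of the set, its starved levels and its changes, 1.58 and 1.53, were alike in both cycles. Mkl2 stood at 196 to 227 normalized reads when starved and at 133 to 202 at 21 to 27 h, and was not called in any window (-0.30 ± 0.11 at 21 to 27 h).

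Rnd3, an atypical small GTPase that acts against stress fibers (chr2:50985958-51004631), fell and did not return. It held 2821 and 3635 in starved Cycle 1 cells and 1949.8 and 2372 in starved Cycle 2 cells, the 0 h value being the higher in both. At 4 to 8 h it stood at 675 to 1103 and 722 to 1066, below all 4 (-1.62 ± 0.12, adjusted p = 4.47e-13 by limma), and it remained at 907 to 1299.9 and 825 to 1427 at 21 to 27 h (-1.11 ± 0.12, adjusted p = 8.52e-10 by limma). All 14 late libraries lay below all 4 starved ones. The late log2 change came just under the 2-fold limit without the 0 h library of Cycle 1 (-0.94), under TMM scaling (-0.98) and against the -1 h libraries alone (-0.95), and it was -0.77 without Cycle 1. Rhob, a small GTPase, also differed between -1 h and 0 h, with 1798 and 3091 in Cycle 1 and 1323 and 2101 in Cycle 2. In the 5 windows its values ran from 1297 to 3086 and from 1063 to 2617, and it was not called in any window (0.36 ± 0.11 at 4 to 8 h and -0.43 ± 0.11 at 21 to 27 h). Diap1, a formin that extends filaments, was not called (0.48 ± 0.11 at 21 to 27 h).

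Srf itself, which is outside the 47 genes, held 546 and 1220.0 normalized reads at -1 h and 0 h of Cycle 1 and 862 and 1079 in Cycle 2. It stood at 1735 to 2048 and 1639 to 2261 at 4 to 8 h, above all starved values, and was called from that window on (1.13 ± 0.14, adjusted p = 3.26e-08 by limma, and 1.17 ± 0.14 at 21 to 27 h). These changes are against a mean of -1 h and 0 h, and Srf was higher at 0 h by 1.16 log2 units in Cycle 1 and 0.32 in Cycle 2. The change of Srf against 0 h alone is not given here, so its place against the 2-fold limit depends on that baseline. In the 0.5 h library of Cycle 2, for which Cycle 1 has no match, none of the 47 genes lay more than 1.5-fold from its starved mean, and the median fold was 1.09. The largest were 1.37 for Actg2 and 1.28 for Actb.

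Direct comparison of 2 windows after serum leaves the starved libraries out. From 1 to 3 h to 4 to 8 h only Lmod1 was called higher (1.31), beside 4.95% of all genes, and only Mylk lower (-1.77), beside 7.42%. From 4 to 8 h to 21 to 27 h 13 genes were called higher, beside 6.37% of all genes, and none lower, beside 9.66%. Of these Cnn1 (3.17), Mylk (3.03), Actg2 (2.88), Lmod1 (2.59), Fhl1 (2.33), Myl9 (2.24) and Acta2 (2.21) rose by more than 2 log2 units. The others were Tpm2 (1.80), Tagln (1.34), Tpm1 (1.31), Cnn2 (1.25), Myh10 (1.21) and Flna (1.00). With either cycle left out the count was again 13. For the genes lower, limma, edgeR and DESeq2 each called 0 and each gave 3 at an unadjusted p under 0.05.

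Beyond 27 h only Cycle 1 was sampled, with 1 library an hour and no test. The share held by the 47 genes was 6.20% at 31 h and 4.65% at 38 h. In the 5 libraries from 34 to 38 h, a span chosen after the values were seen, 20 of the 47 genes lay below all 3 libraries from 25 to 27 h, as did 12.5% of all genes, and 1, Mkl2, lay above them, as did 21.2%. Zyx went from a median of 12526 to 5887 and Actb from 57002 to 33389. Cald1 and Myh10 overlapped the earlier libraries, with log2 differences of 0.18 and 0.14.

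Related genes outside the set moved in both directions at 21 to 27 h, where 6.59% of all genes were called higher and 19% lower. Of 36 genes of the Arp2/3 complex, nucleators and filament ends, 8 were then higher and 1 lower (median log2 change 0.20), with the bundling protein Fscn1 at 1.84 ± 0.10 in the 15 to 20 h window. Among 31 other focal adhesion genes 8 were higher and 5 lower at 21 to 27 h (median 0.51), with the integrin Itgb3 at 3.24 ± 0.13 and the stress fiber protein Synpo at -2.89 ± 0.14, at 4 to 8 h and 15 to 20 h. Among 29 other myosin and muscle genes 4 were higher and 13 lower in those hours (median -0.35). The embryonic and perinatal skeletal myosins Myh3 and Myh8 were at -4.16 ± 0.33 at 9 to 14 h and -3.91 ± 0.34 at 21 to 27 h, with means of only 33.0 and 14.5 normalized reads, and Myh11, the smooth muscle heavy chain, at -2.34 ± 0.19 at 4 to 8 h.

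Levels of marker genes moved in the same hours. The summed smooth muscle and pericyte markers, 8 of 8 in the table, went from 2624 to 5105 normalized reads in starved libraries to 6996 to 10544 at 21 to 27 h. Cnn1, itself one of the 47 genes, supplied 2939 to 5511 of the late sum, and the other 7 went from 2202 to 3878 up to 4058 to 5033. Of the 8, 4 were called higher at 21 to 27 h and 1, Rgs5, lower, with Myocd at most 41.9, Rgs5 at most 31.4 and Kcnmb1 at most 30.2 in any library. The summed 12 fibroblast markers went from 406265 to 572040 down to 204801 to 221431. The 6 measured skeletal and cardiac muscle markers went from 424 to 1244 to 324 to 597. The neural markers, 5 of 5 in the table, went from 1009 to 1336 up to 1859 to 3379, of which Nes made 1575 to 3103, and the other 4 went from 382 to 460 to a range of 247 to 381. The endothelial, epithelial and blood markers summed to at most 282, 305 and 436 normalized reads in starved libraries and at most 115, 227 and 387 at 21 to 27 h. The part of cell composition in the changes of the 47 genes was not tested. The log2 change over all genes also varied with annotated exon length. Among 2891 genes with exons of up to 3022 bases the median at 21 to 27 h was 0.22. It was 0.08 among 2889 of middle length and -0.14 among 2892 genes of 5197 bases or more. The 20 members among the short genes had a median of 1.34, the 10 of middle length 1.57 and the 15 among the long ones 0.81.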

How the data were processed

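RNA-seq libraries (TruSeq Stranded mRNA, single-end reads of 50 bases, 12 libraries per lane) were processed by the authors with CASAVA, STAR (mm9) and HOMER, versions not given in the sources used here. The deposited values are a normalized signal, in which reads on exons were counted on both strands and scaled to the same total per library, so antisense partners cannot be told apart. For 3291 genes, 9 of the 47 included, the deposited value is a mean over transcripts. Of 96 columns 95 were matched to libraries by name, and 1 that matched no library by name was not used, so the 12.5 h library of Cycle 1 was not analysed here. Low values of genes with 1 transcript were whole multiples of 1 read's worth in 99.8% to 100% of cases per library (tolerance 0.1 of a read).

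The test was limma (version 3.58.1, run in R 4.3.3), applied without a filter to log2(value + 1) of 62 libraries (4 starved and 29 shared hours in 2 cycles, 31 residual degrees of freedom), with cycle as the replicate block. The cycle pairing was taken from the labels, and the differences between cycles correlated over 406 pairs of hours with a median of 0.475. Alternatives used edgeR 4.0.16 and DESeq2 1.42.0 on whole reads, other scalings, pseudocounts, baselines and limits, and leaving out each cycle or starved library. All members could be named, with full values for the 2 or 3 of each role with the largest window change, the 4 actins and Srf, and of each related list the 2 largest rises and falls. The counts of 1 related list are not reported here. The members, lists and windows were chosen with earlier results of these data known. Positions are from the NCBIM37 annotation, where Myl12a was not found, and promoter windows from RefSeq GRCm38.p6. Exon lengths were matched for 95.2% of 9112 genes with a mean of at least 100. The fit was also run on simulated counts drawn independently for each library. That cannot show the effect of neighbouring hours deviating together. Tables and plots used Python 3.11.15, pandas 2.3.3 and matplotlib 3.10.9.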

Additional observations from a re-analysis of the deposited data

Results flagged for a closer look

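In 13 cases every library of a window lay above its starved mean in Cycle 1 and below it in Cycle 2, or the reverse. The cycles thus moved in opposite directions from their own starved means. The difference between the cycles was not tested in any of them. At 1 to 3 h the log2 change in Cycle 1 exceeded that in Cycle 2 by 0.72 for Actb, 0.41 for Tpm1, 0.49 for Tpm4, 0.37 for Myl6, 0.69 for Actn1, 0.79 for Vcl, 0.68 for Csrp1, 0.90 for Fhl2, 0.78 for Wdr1 and 0.29 for Capzb. At 4 to 8 h it did so by 0.53 for Tpm1 and 0.96 for Vcl. For Rhob at 9 to 14 h the difference was -0.31. The starved means themselves differed. They were higher in Cycle 2 for all of these genes but Rhob, by 0.25 (Fhl2) to 1.27 (Tpm4) log2 units, and for Rhob the difference was -0.50. Such cases were not counted over all genes.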

How the results depend on the processing

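For members at their window of largest change, 812 of 846 alternative values kept their side of the limits, 19 lost and 14 gained a call, and 1 changed sign (Lima1 at 1 to 3 h, -0.084 without Cycle 1 and 0.82 without Cycle 2). TMM moved the members higher to 2 at 1 to 3 h and 8 at 4 to 8 h and those lower at 21 to 27 h to 0, and median-of-ratios scaling gave 2 higher at 1 to 3 h. A baseline of 0 h alone gave 1 lower at 15 to 20 h, and one of -1 h alone 1 lower at 9 to 14 h and 0 at 21 to 27 h. edgeR and DESeq2 each gave 2 lower from 1 to 3 h to 4 to 8 h, and using every library of a window, the 24.5 h library of Cycle 1 included, 1 lower at 15 to 20 h. With no fold limit the counts higher and lower were 9 and 13, 24 and 8, 37 and 3 (9 to 14 h), 41 and 3, and 40 and 4 in the 5 windows, 29 and 7 from 1 to 3 h to 4 to 8 h, and 40 and 3 from 4 to 8 h to 21 to 27 h. Over all genes, 14.1% were higher and 39.2% lower at 1 to 3 h, and 22.3% and 41.2% at 4 to 8 h. The later windows gave 24.9% and 36.3%, 26.4% and 36.9%, and 26.2% and 39.5% of all genes. The direct comparisons gave 33.2% and 26.8%, and 34.9% and 28.3%. At a limit of 1.5-fold the member counts were 2 and 6, 11 and 6 and 26 higher in the first 3 windows, 2 lower at 15 to 20 h and 2 at 21 to 27 h, and 10 and 3, and 29 and 1, in the 2 direct comparisons. Shares of all genes at that limit are not given here. The cause of these differences, beyond the looser limits, was not tested.

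Leaving out a cycle or a starved library gave 0 to 2 members higher and 0 to 5 lower at 1 to 3 h, 1 to 10 higher at 4 to 8 h, 4 to 22 higher and 1 to 2 lower at 9 to 14 h, 12 to 29 higher and 0 to 1 lower at 15 to 20 h, and 16 to 32 higher and 0 to 1 lower at 21 to 27 h. From 1 to 3 h to 4 to 8 h it gave 1 to 3 higher and 1 to 2 lower. The F test called 0 to 36 members. With 1 cycle and 1 residual degree of freedom it called 0 genes of the table, with 32 members at an unadjusted p under 0.05. Without the replicate block the F test again called 33 members, no member count moved, and 7365 in place of 8352 genes of the table were called. Depth limits the low genes most, such as Actg1 and Mkl2.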

Other observations

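Libraries taken 1 h before serum and at 0 h were alike for most of the 47 genes, with a median absolute log2 difference of 0.12 in Cycle 1 and 0.04 in Cycle 2. Rhob alone differed by more than 0.3 log2 units in both cycles, with 0.78 and 0.67, and Srf, outside the set, was 1.16 higher at 0 h in Cycle 1 and 0.32 in Cycle 2.

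In the 24.5 h library of Cycle 1 the median log2 difference from the neighbouring libraries was 0.29 among genes with exons of up to 3022 bases and -0.21 among those of 5197 bases or more, and the 20 members among the short genes had a median of 0.38. With that library left out, a choice made after the data were seen, the highest Cycle 1 value of Acta2 was 6.31 times the starved mean at 25 h in place of 7.62, that of Tagln 8.20 times at 19.5 h in place of 9.47, and that of Cnn1 11.3 times at 32 h in place of 11.8.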
